A study of Mus musculus with 8 samples.

Results

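The 8 genes described here encode enzymes, or subunits of them, in the routes that re-oxidise the NADH of the cytosol. The genes are those of the dehydrogenases of the glycerol phosphate shuttle (Gpd1, Gpd1l and Gpd2), the cytosolic and transaminase steps of the malate-aspartate shuttle (Got1, Got2 and Mdh1) and the subunits of lactate dehydrogenase (Ldha and Ldhb). They were taken by symbol from the platform annotation of the arrays, which names 19505 genes. Each of the 8 had 1 probe set, so all 8 were measured and none was removed by a filter. The enzymes fall into groups of 3, 3 and 2 genes.

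The samples were splenic cDC1, conventional dendritic cells of the kind that excels at showing antigen to CD8 T cells. The mice were naive, wild type and of the C57BL/6 strain. Cells had been sorted into a TMRM/MG-high fraction (4 arrays) and a TMRM/MG-low fraction (4 arrays). TMRM is a dye that mitochondria take up in proportion to their membrane potential, and the labels do not spell out MG. The labels give no age, sex or number of mice per sample, and nothing says that the replicates came from separate animals, so the p-values reflect spread between arrays that may be technical replicates.

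Glycolysis reduces NAD to NADH in the cytosol, and the inner mitochondrial membrane does not let NADH through. In the glycerol phosphate shuttle, cytosolic Gpd1 (or its paralogue Gpd1l) uses NADH to make glycerol 3-phosphate, and Gpd2, on the outer face of the inner membrane, oxidises it again and hands the electrons to ubiquinone, past complex I. In the malate-aspartate shuttle, Mdh1 moves the electrons onto malate, which is oxidised in the matrix to give NADH for complex I, and the transaminases Got1 and Got2 with the aspartate-glutamate carriers close the cycle, in a step that the membrane potential drives. Lactate dehydrogenase instead passes the electrons to pyruvate and keeps them in the cytosol as lactate. Ldha encodes the M subunit, abundant in glycolytic tissue, and Ldhb the H subunit, abundant in heart.

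The start regions of the genes at the extremes of the comparison are shown here from RefSeq (GRCm38.p6): Gpd2, whose signal fell, Mdh1, whose signal rose, Got1, the cytosolic transaminase beside Mdh1 in the same shuttle, and Ldha, which had the smallest difference. Each run is the 250 bases before an annotated transcription start, 5′ to 3′ on the strand of the gene. Gpd2 and Ldha each have a pair of such starts, and only the upstream one of Ldha is printed. Capitals mark matches, on either strand, to the letters searched: ACGTG (the core of the hypoxia response element), CACGTG (E-box, which holds the ACGTG core on both strands), TGACGTCA (cyclic AMP response element), CCAAT and TATAAA.
Gpd2 upstream start, chr2:57237428-57237677, plus strand: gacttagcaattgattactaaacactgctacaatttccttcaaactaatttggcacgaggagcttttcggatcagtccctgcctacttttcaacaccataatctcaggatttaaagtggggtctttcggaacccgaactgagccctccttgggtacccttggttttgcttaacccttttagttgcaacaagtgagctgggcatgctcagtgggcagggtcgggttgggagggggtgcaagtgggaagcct
Gpd2 downstream start, chr2:57238132-57238381, plus strand: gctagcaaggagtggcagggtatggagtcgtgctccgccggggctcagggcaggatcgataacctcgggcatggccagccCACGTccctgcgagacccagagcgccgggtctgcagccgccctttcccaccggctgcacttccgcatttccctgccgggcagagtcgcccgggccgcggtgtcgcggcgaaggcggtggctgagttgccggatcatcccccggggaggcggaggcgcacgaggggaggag
Mdh1, chr11:21571935-21572184, minus strand: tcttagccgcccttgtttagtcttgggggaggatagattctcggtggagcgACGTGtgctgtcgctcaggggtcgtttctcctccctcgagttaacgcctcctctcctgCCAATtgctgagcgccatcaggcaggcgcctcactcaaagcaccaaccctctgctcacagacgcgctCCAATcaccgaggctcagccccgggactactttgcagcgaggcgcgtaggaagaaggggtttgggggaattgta
Got1, chr19:43524606-43524855, minus strand: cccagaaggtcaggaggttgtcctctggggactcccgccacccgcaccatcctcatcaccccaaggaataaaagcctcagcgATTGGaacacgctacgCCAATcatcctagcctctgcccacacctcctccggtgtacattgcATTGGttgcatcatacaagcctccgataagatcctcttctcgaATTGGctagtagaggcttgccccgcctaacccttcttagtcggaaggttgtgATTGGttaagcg
Ldha upstream start, chr7:46845554-46845803, plus strand: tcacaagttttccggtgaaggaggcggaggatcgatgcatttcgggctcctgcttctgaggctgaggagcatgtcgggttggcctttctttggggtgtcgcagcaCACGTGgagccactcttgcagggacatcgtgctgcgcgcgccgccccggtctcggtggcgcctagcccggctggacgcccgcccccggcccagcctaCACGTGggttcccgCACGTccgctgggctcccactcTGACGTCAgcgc

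RefSeq windows were matched for 7 of the 8 genes, 9 windows in all, and Gpd1 had no entry. The ACGTG core lay in 4 of the 9 windows, against 16.6% of all 32851 promoter windows, and an E-box in 2 of the 9, against 6.02%. The Ldha window printed here held both E-boxes of that gene, at 145 and 48 bases before the start, and the cyclic AMP response element that 1.55% of all windows hold. The downstream Ldha window, not printed, had none of the letters searched. The upstream Gpd2 window had none of the letters searched, and the downstream one had a single ACGTG core, 170 bases before the start. CCAAT lay in 4 of the 9 windows, against 33.8% of all windows. The Got1 window held 5 of them, a number that 0.213% of all windows reach. TATAAA, held by 12.4% of all windows, was found only before Got2. These matches describe the sequence alone. The probe sets do not tell the Gpd2 starts, or the Ldha starts, apart.

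Of the 8 genes, 1 was lower (Gpd2) and 1 was higher (Mdh1) in TMRM/MG-high cells by limma, with Benjamini-Hochberg adjustment over all 22206 probe sets tested and a threshold of 0.05. Over the whole array 2.96% of probe sets were lower and 5.28% higher, 8.25% in all. A count of 2 among 8 genes is too small to set these enzymes apart from that background. By group, the median log2 difference (high minus low) was 0.037 for the glycerol phosphate shuttle, 0.27 for the malate-aspartate shuttle and -0.14 for lactate dehydrogenase. For all probe sets tested it was 0.0093. With dim probe sets left out, the median of the 4883 that remained was 0.099. A separate limma fit of these, with its own adjustment, called 1561 higher and 617 lower. Got1, Got2 and Mdh1 were among those that remained, so 0.099 is the closer comparison for the malate-aspartate median. Each of the group medians rests on 2 or 3 genes, and no test compared the groups. The malate-aspartate median leaves out Mdh2, the matrix enzyme of that shuttle, which is described below. The value of 0.037 is that of Gpd1 alone, within a range of -0.58 to 0.19, and turned to -0.010 after a further quantile normalization. The value of -0.14 is the mean of 2 genes that were not called.

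All signals are log2 values after RMA, which brings the arrays to a common distribution, so each difference is relative to the other transcripts. In sorted populations, fewer cells that carry a transcript and less of it per cell cannot be told apart. Spike-in RNAs, added to every sample or target, also separated the fractions: their mean was 9.06 ± 0.25 on high arrays and 9.99 ± 0.22 on low arrays (SD, n = 4 for both), with no overlap. Their part in the results was not tested beyond a fit with this level as a covariate, given below for the genes that passed.

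**Figure D1:**
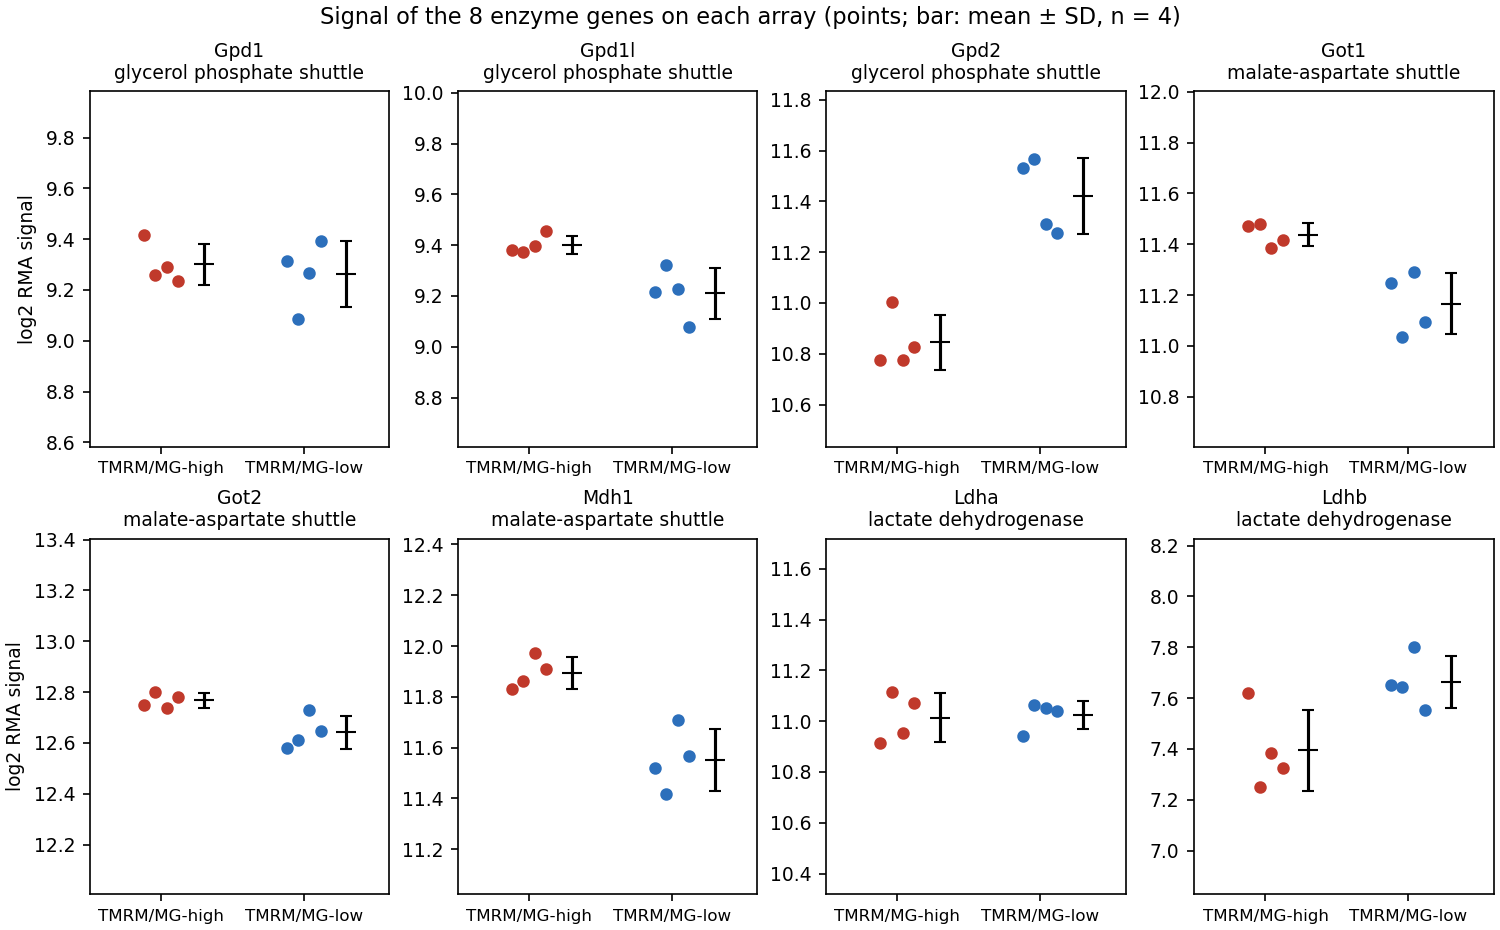
Log2 RMA signal (vertical axis) of the 8 enzyme genes on every array, with the TMRM/MG-high arrays left (red) and the TMRM/MG-low arrays right (blue). Bars give the mean ± SD of 4 arrays, and each panel spans the same number of log2 units; the Gpd2 points of the high arrays lie below all those of the low arrays, and the Mdh1 points lie above.

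Gpd2, the mitochondrial glycerol 3-phosphate dehydrogenase, was the member that differed most. Its signal was 10.78, 11.00, 10.77 and 10.83 on the TMRM/MG-high arrays, against 11.53, 11.57, 11.31 and 11.28 on the TMRM/MG-low arrays. The highest high array lay 0.27 below the lowest low array, a gap about as wide as the range within either fraction (0.23 high, 0.29 low). The log2 difference was -0.58 (SE 0.097, 95% interval -0.79 to -0.37), a 1.49-fold lower signal, with a limma adjusted p = 0.0092. Only 0.793% of the probe sets tested had a more negative difference. Among negative control probe sets, which lie in introns, 98.2% had a lower mean in the high arrays and 98.8% in the low arrays, so the signal was well clear of that background.

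The call for Gpd2 held in each of the 8 fits that left out 1 array (highest adjusted p = 0.0352), the difference ranging from -0.63 to -0.53. Adjusted for the spike-in level it was -0.37 (SE 0.24, adjusted p = 0.9996), not called; no probe set on the array was called in that fit.

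The cytosolic partners of Gpd2 passed the test in neither direction. Gpd1, the NADH-linked glycerol 3-phosphate dehydrogenase, had 9.42, 9.26, 9.29 and 9.24 on the high arrays, against 9.31, 9.09, 9.27 and 9.39 on the low arrays. These values overlapped throughout, and the difference of 0.037 (SE 0.089, limma adjusted p = 0.842) had a 95% interval of -0.16 to 0.23. Gpd1l, the paralogue of Gpd1 with the same reaction, had 9.38, 9.37, 9.40 and 9.45 on the high arrays, against 9.22, 9.32, 9.23 and 9.08 on the low arrays. Its high arrays all lay above its low arrays, by as little as 0.052. The difference of 0.19 (SE 0.081, 95% interval 0.015 to 0.37) was not called, with a limma adjusted p = 0.164. Both genes had signals above those of 90.3% to 91.1% of the negative controls, below the 95th percentile of these.

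Of the malate-aspartate shuttle, Got1, Got2 and Mdh1 all had higher signals on every high array than on any low array. Of these 3, 1 passed the test. Mdh2, the matrix enzyme of the same shuttle, is described below with the partners. It overlapped between the fractions, with a difference of -0.061. Over all probe sets, dim ones included, 9.70% had high arrays entirely above the low arrays and 6.37% had them entirely below, 16.1% together. Mdh1, the cytosolic malate dehydrogenase that takes up the electrons of NADH, had 11.83, 11.86, 11.97 and 11.91 on the high arrays, against 11.52, 11.42, 11.71 and 11.57 on the low arrays. The lowest high array stood 0.12 above the highest low array, which was low replicate 3. The log2 difference was 0.34 (SE 0.086, 95% interval 0.15 to 0.53), a 1.27-fold higher signal, with a limma adjusted p = 0.0341. A larger difference was found for 7.51% of the probe sets tested.

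The Mdh1 call rested on most of the arrays. It was kept without high replicate 1 or low replicate 3 and lost in the other 6 omissions, where the highest adjusted p was 0.104 (without high replicate 3) and the difference stayed between 0.30 and 0.35. After a further quantile normalization of the tested probe sets it was 0.26 (limma adjusted p = 0.0665), and adjusted for spike-in level 0.041 (SE 0.20).

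Got1, the cytosolic aspartate transaminase that regenerates oxaloacetate for Mdh1, had 11.47, 11.48, 11.39 and 11.42 on the high arrays, against 11.25, 11.03, 11.29 and 11.09 on the low arrays. The fractions did not overlap, with a gap of 0.097, and the difference was 0.27 (SE 0.085, 95% interval 0.087 to 0.46). Its limma adjusted p = 0.0701 missed the threshold, and fell below it without low replicate 3 (0.31, adjusted p = 0.0451). That was 1 of 8 omissions, among which the highest limma adjusted p was 0.171. After further quantile normalization the Got1 difference was 0.19 (limma adjusted p = 0.176), and with the replicate block the adjusted p was 0.0943. Got2, the transaminase of the mitochondrial matrix, had 12.75, 12.80, 12.74 and 12.78 on the high arrays, against 12.58, 12.61, 12.73 and 12.65 on the low arrays. Here high replicate 3 and low replicate 3 were separated by 0.0095 only. The difference of 0.13 (SE 0.075, 95% interval -0.039 to 0.29) was not called, with a limma adjusted p = 0.328.

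Neither lactate dehydrogenase subunit passed the test. Ldha had 10.91, 11.11, 10.96 and 11.07 on the high arrays, against 10.94, 11.07, 11.05 and 11.04 on the low arrays. The fractions were interleaved, and the difference was -0.010 (SE 0.081, limma adjusted p = 0.955). Its 95% interval of -0.19 to 0.17 leaves room for a small change in either direction.

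Ldhb had 7.62, 7.25, 7.38 and 7.32 on the high arrays, against 7.65, 7.64, 7.80 and 7.55 on the low arrays. Of the high arrays, 3 lay below all low arrays, and high replicate 1 lay among them. The difference of -0.27 (SE 0.098, 95% interval -0.48 to -0.055) was not called (limma adjusted p = 0.112), and was called without high replicate 1 (-0.34, adjusted p = 0.0425). Of the negative controls, 61.1% had a lower mean than Ldhb on high arrays and 68.1% on low arrays, so the Ldhb signal was within the range of that background and the size of its difference is uncertain.

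**Figure D2:**
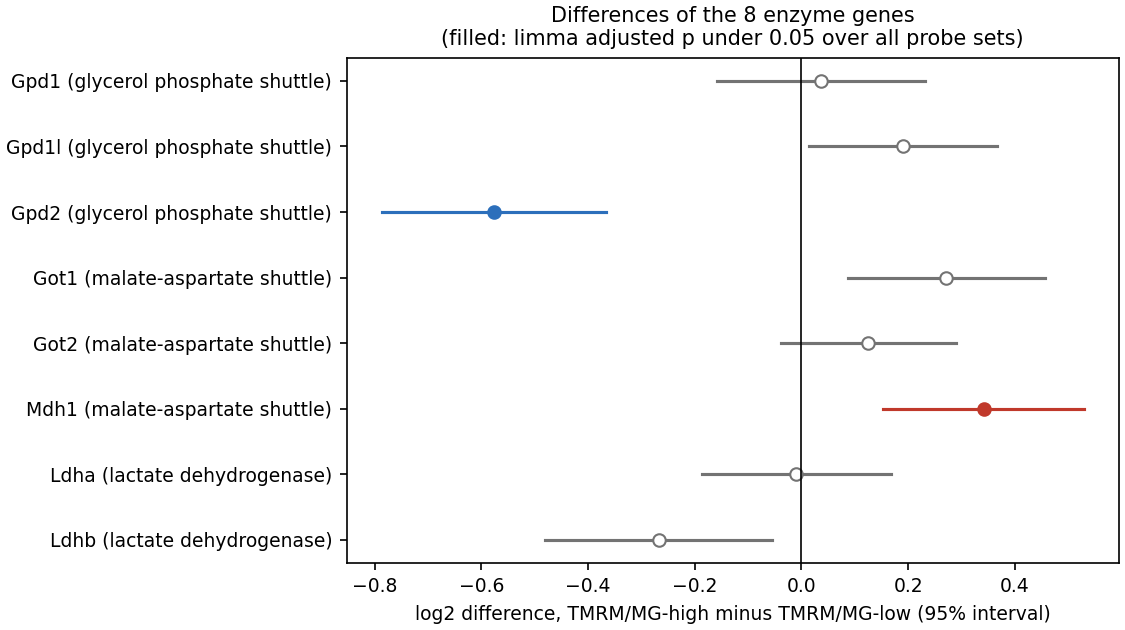
Log2 difference (horizontal axis, TMRM/MG-high minus TMRM/MG-low) of each enzyme gene with its 95% interval from limma. Filled points passed an adjusted p of 0.05 over all probe sets: Gpd2 at -0.58 and Mdh1 at 0.34; the intervals of Gpd1, Got2 and Ldha cross 0.

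The spread between arrays was also compared between the fractions. The SD was larger among the low than among the high arrays for 6 of the 8 genes, the exceptions being Ldha and Ldhb, while this was so for 55.4% of all probe sets tested. With 8 genes, that count does not set these enzymes apart from the array as a whole. For Got1 the SD was 0.045 among the high and 0.12 among the low arrays, and for Mdh1 it was 0.062 among the high and 0.12 among the low arrays. Low replicate 3 had the highest signal of its fraction for Got1, Got2, Mdh1 and Ldhb.

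Differences between a pair of genes on the same array were computed for 6 pairs. A level difference between 2 genes depends on their probes and has no meaning of its own, but a shift of it between fractions describes unequal change. For the 4 pairs with Gpd2 the shifts are a description, with no test. Gpd2 does not overlap between the fractions, and Got1, Got2 and Mdh1 lie apart the other way, so these pairs had to separate. The ranges of Gpd2 and Ldha fix the separation of that pair too.

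Gpd2 minus Mdh1 was -1.05, -0.86, -1.20 and -1.08 on the high arrays, against 0.014, 0.15, -0.40 and -0.29 on the low arrays. The fractions were separated, and the mean was -1.05 ± 0.14 on high arrays and -0.13 ± 0.26 on low arrays (SD, n = 4 for both). The shift was -0.92. Gpd2 minus Got1 shifted by -0.85, Gpd2 minus Got2 by -0.70 and Gpd2 minus Ldha by -0.57.

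The other pairs were tested with a two-sided exact permutation test of the 4 high against the 4 low arrays, adjusted over all 6 pairs, and did not pass. The 4 pairs with Gpd2 enter that adjustment at the smallest possible p by construction, which can make the adjusted values of the others smaller. For that reason no adjusted value is given for these pairs without 1 array. The smallest p this design allows is 0.0286. Ldha minus Ldhb was 3.62 ± 0.25 on high arrays and 3.36 ± 0.11 on low arrays (SD, n = 4 for both). The shift of 0.26 had an exact p = 0.114 (adjusted 0.114), and without high replicate 1 it was 0.37. Since the Ldhb signal was within the range of the negative controls, the size of this shift is uncertain. Got1 minus Got2, the cytosolic against the matrix transaminase, was -1.33 ± 0.038 on high arrays and -1.48 ± 0.11 on low arrays (SD, n = 4 for both). That shift of 0.15 had an exact p = 0.0857 (adjusted 0.103), and without low replicate 1 it was 0.19.

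**Figure D3:**
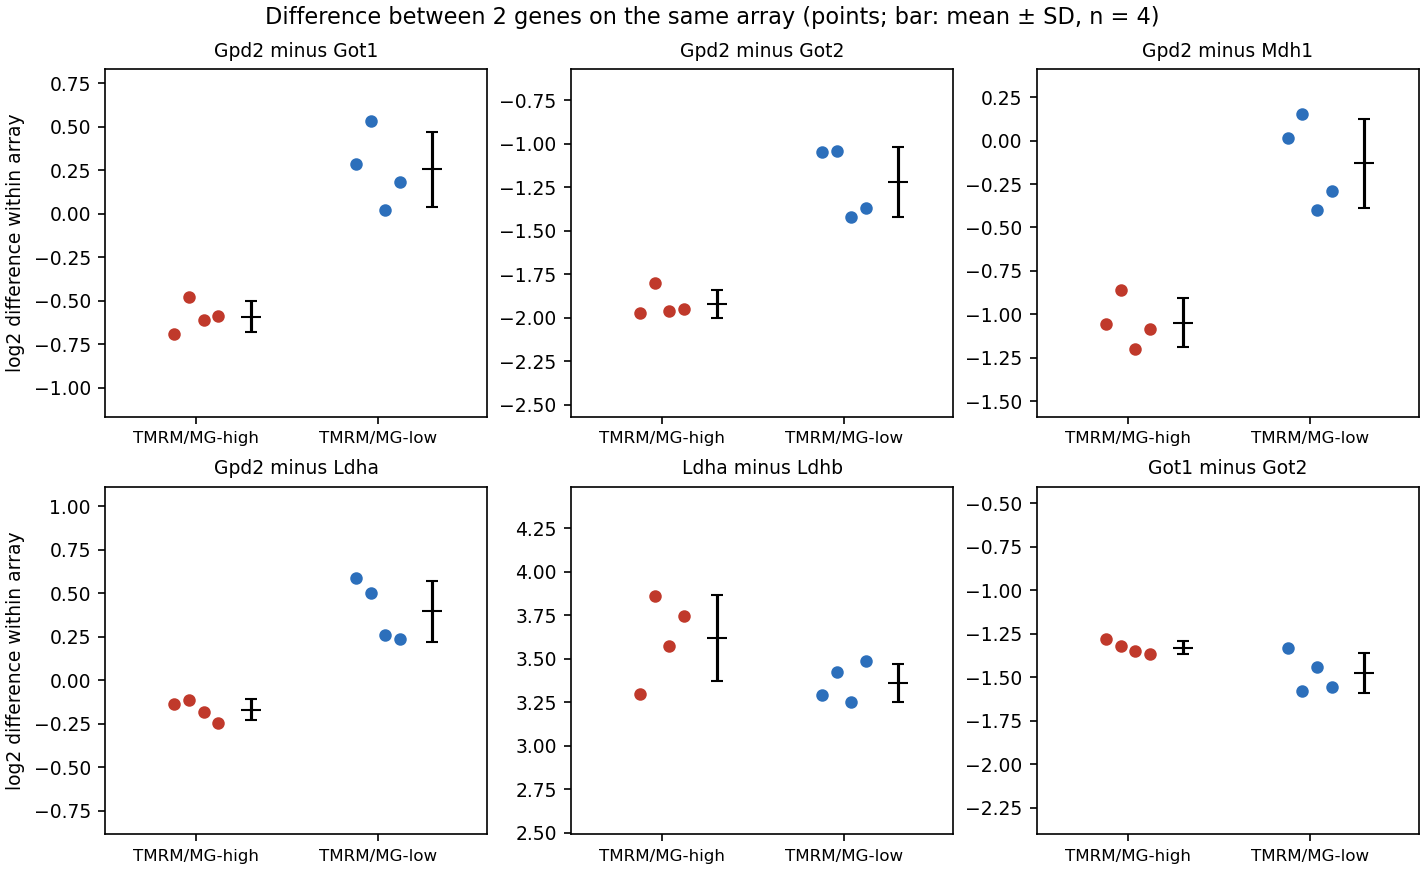
Difference in log2 RMA signal between 2 genes on the same array (vertical axis), with the TMRM/MG-high arrays left (red) and the TMRM/MG-low arrays right (blue), and the mean ± SD of 4 arrays. The 4 panels that hold Gpd2 show no overlap of the fractions, with shifts of -0.57 to -0.92, while the Ldha minus Ldhb and Got1 minus Got2 panels overlap.

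Lists of neighbouring pathway genes were read from the same fit, in which 5.28% of all probe sets were called higher and 2.96% lower. With dim probe sets left out and limma fitted again, 1561 of 4883 were higher and 617 lower. That fit has its own adjustment, so its counts and the list calls are not at the same threshold. No list was tested as a set, so the counts in each are a description. The remaining steps of the malate-aspartate shuttle were split. Of 4 partners measured, the 2 aspartate-glutamate carriers were higher and the others were not called, with a median difference of 0.21. Slc25a12, a calcium-regulated carrier, had 10.24, 10.54, 10.42 and 10.50 on the high arrays, against 10.07, 9.91, 10.18 and 10.07 on the low arrays (difference 0.36, SE 0.094, limma adjusted p = 0.0372). Slc25a13, the second aspartate-glutamate carrier, had 8.19, 8.34, 8.36 and 7.98 on the high arrays, against 7.92, 7.89, 7.71 and 7.77 on the low arrays (0.39, SE 0.10, adjusted p = 0.0363). Neither carrier overlapped between the fractions. Each call was kept in 2 of the 8 omissions, and both together only without high replicate 1. Slc25a12 was not called with the replicate number as a block (0.36, adjusted p = 0.0548) or after further quantile normalization (0.29, adjusted p = 0.0562), and adjusted for spike-in level it was -0.047. The Slc25a13 signal was above 75.8% of the negative controls on the high arrays and 71.4% on the low arrays, so the size of its difference is uncertain.

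Mdh2, the matrix malate dehydrogenase that reverses the reaction of Mdh1, differed by -0.061 (SE 0.082, limma adjusted p = 0.695). Slc25a11, which exchanges malate for 2-oxoglutarate, differed by 0.063 (SE 0.083, adjusted p = 0.686). Both overlapped between the fractions.

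Gpd2 feeds electrons to ubiquinone, as do other dehydrogenases of the inner membrane. Of 9 measured, 3 were higher and 0 lower by limma (0 lower also at an unadjusted p under 0.05), with a median difference of 0.23: Etfdh, which takes electrons from fatty acid oxidation (0.64, SE 0.13, adjusted p = 0.0170), the choline dehydrogenase Chdh (0.40, adjusted p = 0.0428) and Sdhb, the iron-sulfur subunit of complex II (0.29, adjusted p = 0.0414). The brightest of those not called were Sdha (0.25) and Sdhd (0.23). Etfdh kept its call in 6 of 8 omissions, and Sdhb and Chdh in 1 each. After further quantile normalization Sdhb (adjusted p = 0.0850) and Chdh (0.0661) were not called, nor were they after median centring (0.0619 and 0.0597). Sdhb was not called with the replicate block (adjusted p = 0.0693). The Chdh signal was above 64.6% of the negative controls on the high arrays and 59.1% on the low arrays, so the size of its difference is uncertain.

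Among 6 genes that use or dispose of glycerol 3-phosphate, or of dihydroxyacetone phosphate in the case of Gnpat, 1 was higher and 0 lower (median 0.15). It was Gpat4, an acyltransferase of the endoplasmic reticulum that starts glycerolipid synthesis (0.34, SE 0.090, limma adjusted p = 0.0392; 0.27, adjusted p = 0.0695 after further quantile normalization). It kept its call in 2 of 8 omissions and lost it after median centring (0.33, adjusted p = 0.0549). The phosphatase Pgp (0.25) and the peroxisomal acyltransferase Gnpat (0.24) were not called.

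Lactate and pyruvate transport had 1 fall among 7 genes measured, in Slc16a3, the MCT4 carrier through which glycolytic cells export lactate. It had 7.87, 8.01, 7.85 and 8.05 on the high arrays, against 8.94, 8.31, 8.40 and 8.49 on the low arrays. The fractions did not overlap, and the difference was -0.59 (SE 0.13, limma adjusted p = 0.0207), or -0.45 without low replicate 1, the highest array. The call was kept in 6 of 8 omissions (highest limma adjusted p = 0.0672). The Slc16a3 signal was above 71.4% of the negative controls on the high arrays and 83.2% on the low arrays, so the size of its difference is uncertain. The median of the list was 0.21. Bsg, the chaperone of these carriers, differed by 0.23 (adjusted p = 0.105) and Mpc1, a subunit of the mitochondrial pyruvate carrier, by 0.21 (adjusted p = 0.202). Among the other lactate dehydrogenases, 0 of 3 were called (Ldhal6b 0.12, Ldhd 0.019; median 0.054), and limma's unadjusted p was above 0.05 for each.

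Pyruvate dehydrogenase and its regulators, which take pyruvate away from lactate dehydrogenase, had 3 rises among 12 genes and 0 falls (median 0.093). These were Dlat, the acetyltransferase core (0.69, SE 0.16, limma adjusted p = 0.0268), Dld, the dehydrogenase that makes its NADH (0.48, SE 0.094, adjusted p = 0.0145), and Pdk3, a kinase that inhibits the complex (0.53, SE 0.12, adjusted p = 0.0259). Pdhb (0.15) and Pdha1 (0.037), which encode the decarboxylase subunits, were not called. Dld kept its call in 6 of 8 omissions, Pdk3 in 3 and Dlat in 2.

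Glycolysis had 3 rises and 0 falls among 15 genes (median 0.14). Gapdh, the step that makes the NADH these routes re-oxidise, differed by 0.043 (SE 0.084, limma adjusted p = 0.804), and Pfkp by 0.12. Those called were Tpi1 (0.44), which interconverts the dihydroxyacetone phosphate that Gpd1 uses, Aldoc (0.43) and Hk1 (1.17). Hk1 overlapped between the fractions, with 6.51 on high replicate 1 against 6.57 on low replicate 2. Its mean in the low arrays lay below the median of the negative controls, so the size of its difference is uncertain. Each of the 3 calls was kept in 3 of 8 omissions, and Aldoc was not called after further quantile normalization (adjusted p = 0.0518).

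Other transaminases and glutamate enzymes had 1 rise and 1 fall among 8 genes (median 0.014). Bcat2, the mitochondrial branched-chain transaminase, had 9.01, 9.31, 9.06 and 9.06 on the high arrays, against 9.77, 9.84, 9.48 and 9.61 on the low arrays. The fractions were separated, with a difference of -0.56 (SE 0.10, limma adjusted p = 0.0122), and the call held in all 8 omissions. Psat1, the transaminase of serine synthesis, rose by 0.53 (adjusted p = 0.0192), while Oat (0.34) and Kyat1 (-0.20) were not called. Of the 15 called genes in these 8 lists, Slc25a12, Tpi1 and Sdhb had signals above 95% of the negative controls in both fractions and Gpat4 in the high fraction alone, while the other 11 lay lower in both. The sizes of the differences of those 11 are uncertain.

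**Figure D4:**
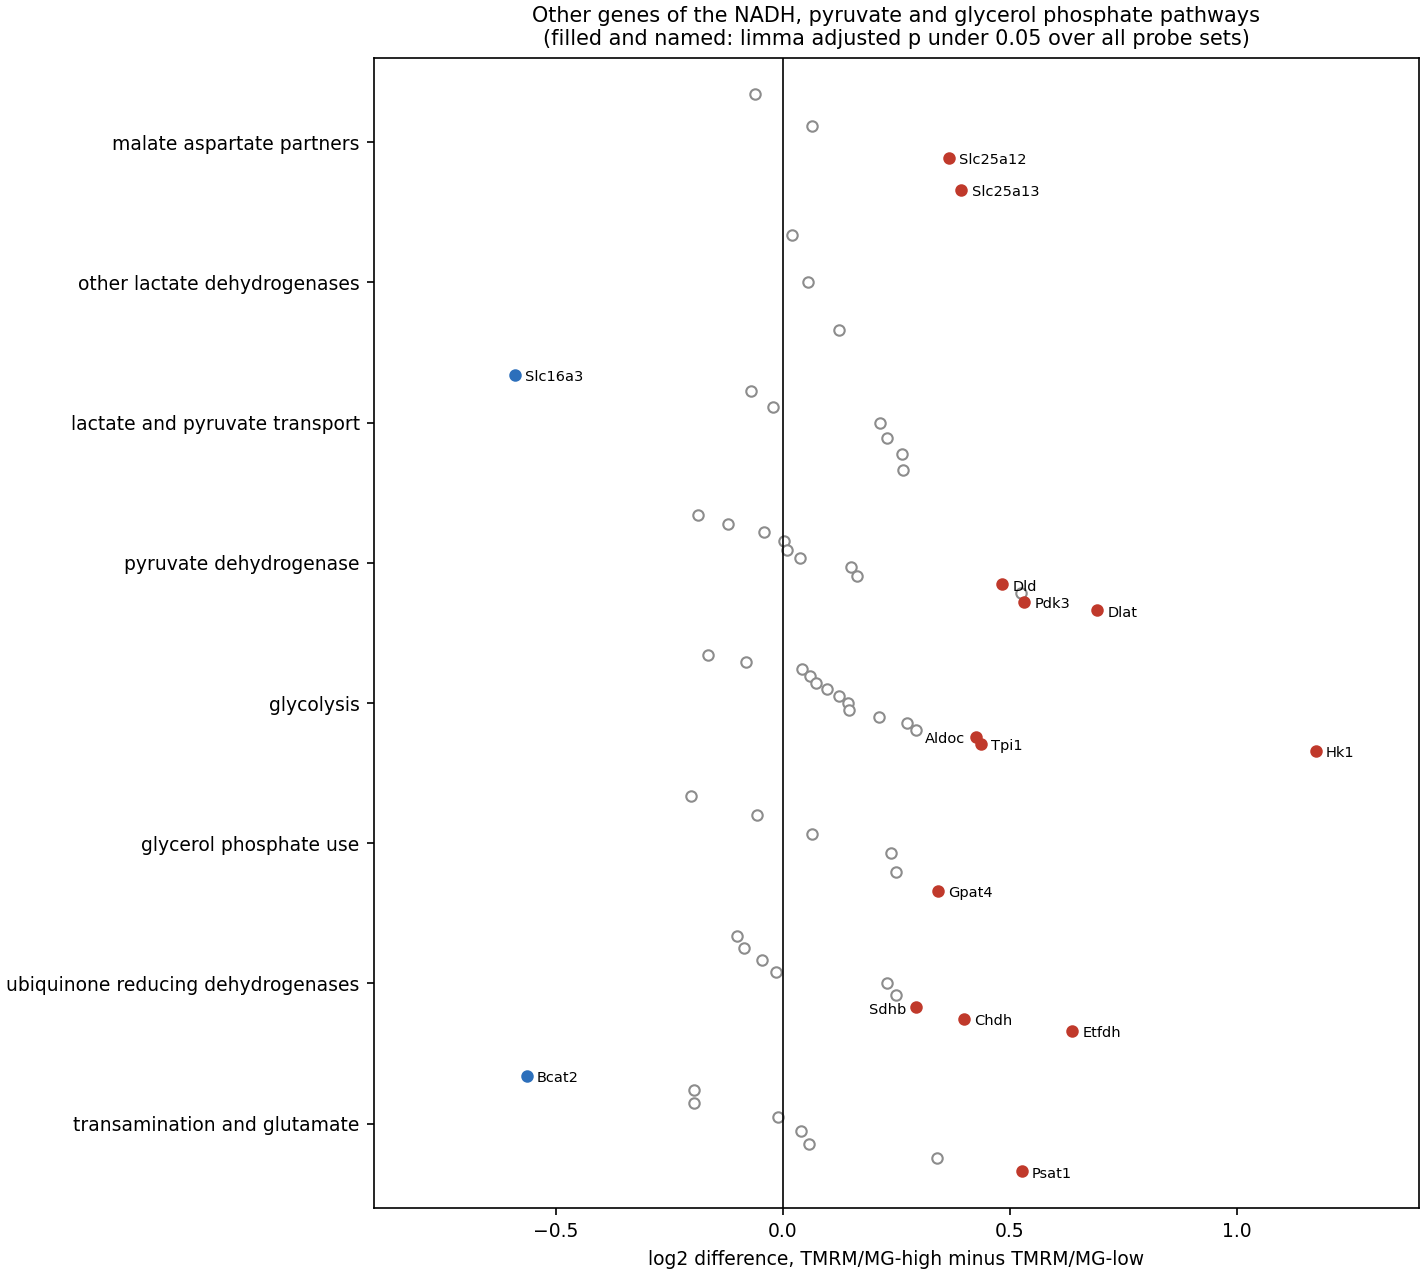
Log2 difference (horizontal axis, TMRM/MG-high minus TMRM/MG-low) of every measured gene in 8 lists of neighbouring pathway genes, listed down the vertical axis. Filled, named points passed a limma adjusted p of 0.05 over all probe sets; Slc16a3 at -0.59 and Bcat2 at -0.56 are the falls, and all other named points lie right of 0.

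The profiles nearest to those of Gpd2, Mdh1 and Ldha over the 8 arrays were found by the root mean square difference between centred log2 values. Nearest to Gpd2 were Bcat2 (0.048), Rai1 (0.061) and Aspscr1 (0.067), with differences of -0.56, -0.53 and -0.52 between the fractions. Nearest to Mdh1 were Mppe1 (0.037), Tbl3 (0.037) and Hsd17b12 (0.040), with differences of 0.32, 0.34 and 0.34. Nearest to Ldha were Rnase6 (0.033), Mau2 (0.033) and Rps10 (0.035), with differences of -0.024, -0.011 and 0.0079.

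Cell type markers were read on the same arrays, where limma called 5.28% of all probe sets tested higher and 2.96% lower. The cDC1 markers Xcr1, Clec9a, Irf8 and Batf3 had signals above those of 98.9% or more of the negative controls in both fractions, and 0 of 13 cDC1 markers were called by limma (2 higher and 1 lower at an unadjusted p under 0.05). Plasmacytoid dendritic cell markers were higher in the high fraction, with 11 of 13 called (12 at an unadjusted p under 0.05) and a mean list level of 9.95 to 10.38 on the high arrays, against 9.23 to 9.41 on the low arrays. T and NK cell markers had 3 of 13 called lower (Cd3d, Cd3e and Cd3g; 9 at an unadjusted p under 0.05) and a level of 8.91 to 9.49 on the high arrays, against 9.17 to 9.89 on the low arrays. Neutrophil markers had 1 of 8 called lower (Csf3r; 5 at an unadjusted p under 0.05), with a level of 8.40 to 9.15 on the high arrays, against 9.23 to 9.80 on the low arrays. Of 7 B cell, 10 macrophage and monocyte and 4 erythroid markers limma called 0 (0 also at an unadjusted p under 0.05), and cDC2 markers had 1 rise and 1 fall among 10 (2 and 2 at an unadjusted p under 0.05). Apart from 1 cDC2 marker, no marker measured had means below the median of the negative controls in both fractions. Siglech, Bst2, Ccr9, Klk1, Cd209d, Atp1b1, Ly6c2, Cd3e and Csf3r kept their calls in all 8 omissions of 1 array. Ly6d and Cd3d kept theirs in 6, Cd3g in 4, Tcf4 in 3, and Lair1, Pacsin1, Notch2 and Ccr2 in 2. Atp1b1, Cd209d, Lair1, Pacsin1, Ccr2, Cd3d, Cd3e and Cd3g were among the dim probe sets, so the sizes of their differences are uncertain. The part of these cell types in the enzyme differences was not tested.

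**Figure D5:**
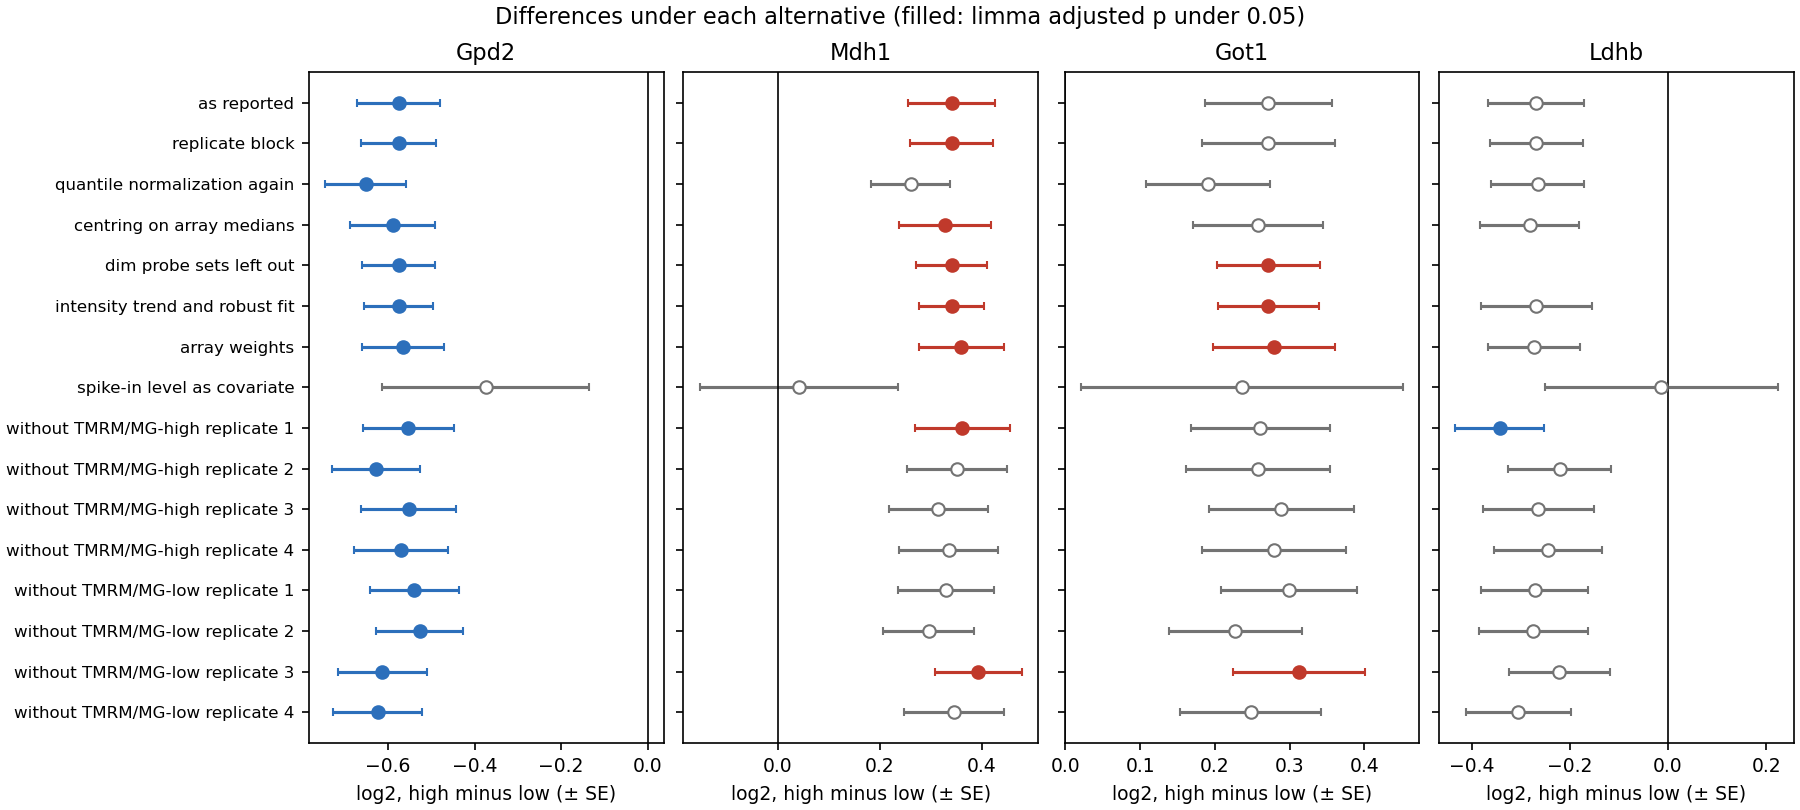
Log2 difference (horizontal axes, TMRM/MG-high minus TMRM/MG-low, ± SE) of Gpd2, Mdh1, Got1 and Ldhb as reported and under 15 alternative fits, listed down the vertical axis. Filled points had a limma adjusted p under 0.05: Gpd2 was called in all fits but that with the spike-in covariate, and Ldhb only without high replicate 1.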

How the data were processed

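Total RNA was labelled with biotin by the Whole Transcript Plus kit, per the labels' protocols. The deposited values are log2 signals that the authors made with RMA in Affymetrix Expression Console 1.1, per the submitters' processing notes; no source used here gives the genome build. Of 28846 rows, 6640 control probe sets were left out, and 22206 were tested, 19572 of them with 1 gene symbol. Median signal was 8.11 to 8.16 on every array, and precision is limited by the number of arrays.

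The fractions were compared (high minus low) with limma 3.58.1 in R 4.3.3, by lmFit and eBayes, two-sided, without a block, after the procedure had been tested on simulated data. Negative controls are the 5222 intron probe sets. Alternatives were the replicate number as a block, median centring, array weights, further quantile normalization, a robust fit with an intensity trend, removal of dim probe sets, a covariate for spike-in level, and omission of each array. The genes, lists and tests were chosen with earlier results of these data known. Named from each list were the called genes and the 2 brightest others, and for Gpd2, Mdh1 and Ldha the 3 nearest profiles (without provisional and small RNA symbols). Promoter windows were searched on both strands. List genes without a named probe set were not analysed here.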

Additional observations from a re-analysis of the deposited data

Results flagged for a closer look

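Dixon's test was run on the 4 arrays of each fraction for the 8 genes and 6 gene pairs, 28 groups of values in all, and singled out 1, where chance alone singles out about 5% of groups. Gpd2 minus Got2 was -1.80 on high replicate 2, while the other high arrays lay between -1.97 and -1.95. The same array had the highest Gpd2 signal of its fraction (11.00), and its value lay below those of all low arrays (-1.42 to -1.04).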

How the results depend on the processing

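Gpd2 kept its direction in all 15 alternative fits and its call in 14, the exception being the spike-in covariate (-0.37), under which Mdh1 was 0.041, members called numbered 0 higher and 0 lower, and limma called 0 probe sets on the array in either direction; the spike-in level separates the fractions, so it shares most of its information with them. Further quantile normalization left 0 members called higher (Mdh1 0.26) and turned Gpd1 to -0.010. Got1 was called without dim probe sets (0.27), with an intensity trend and robust fit (0.27) and with array weights (0.28), each with 2 members called higher. It was not called after further quantile normalization (0.19), with median centring (0.26) or with the replicate block (0.27). Without dim probe sets, and with the trend and robust fit, the Got1 difference was unchanged and its SE was 0.068, against 0.085 as reported. The cause was not tested. Leaving out dim probe sets also removed Gpd1, Gpd1l and Ldhb from the test.

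The intensity trend with a robust fit called 1950 probe sets higher, against 1173. Leaving out dim probe sets gave 1561 higher and 617 lower among the 4883 that remained, and quantile normalization 852 higher and 858 lower, against 658 lower as reported. Leaving out 1 array gave 183 to 1680 higher and 218 to 793 lower, 0 to 2 members higher and 1 to 2 lower. Differences then ranged from -0.022 to 0.079 for Gpd1, 0.15 to 0.23 for Gpd1l, 0.23 to 0.31 for Got1, 0.10 to 0.15 for Got2, 0.30 to 0.39 for Mdh1, -0.044 to 0.023 for Ldha and -0.34 to -0.22 for Ldhb. The shift of Ldha minus Ldhb ranged from 0.18 to 0.37 and that of Got1 minus Got2 from 0.11 to 0.19.

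Same-numbered arrays deviated together with correlations of 0.015 to 0.27 across probe sets, and 3 of 8 arrays correlated best with their own number, so the numbers were not taken to pair the samples. With the replicate block limma called 1225 higher and 650 lower, and the calls of Gpd2 (-0.58, adjusted p = 0.0131) and Mdh1 (0.34, adjusted p = 0.0386) were kept, while no other member was called; the block also ended the calls of Slc25a12 and Sdhb. The paired sign-flip form of the pair tests cannot go below an exact p of 0.125, so it says nothing about the shifts against Gpd2 of -0.85 (Got1), -0.70 (Got2), -0.92 (Mdh1) and -0.57 (Ldha). The mean of several probe sets was not run, since each member has 1.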
